A study of Rattus norvegicus with 6 samples.

Results

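Transmitter receptor genes were compared between cultured rat oligodendrocyte progenitor cells (OPCs) with and without fibrinogen. The genes were chosen by symbol: subunits and receptors for glutamate, GABA, glycine, acetylcholine, serotonin, noradrenaline and adrenaline, dopamine, ATP and other nucleotides, and adenosine, each read from its probe set with the highest mean. This gave 110 genes of 13355 tested, in 16 families. One of them, Grid2ip, encodes a protein that binds a delta glutamate receptor and is no receptor itself. Primary OPCs, taken from newborn rats on postnatal day 1 to 2, recovered for 2 days with the growth factors PDGF and NT3. Fibrinogen, a clotting protein of blood plasma, was then present for 48 h in differentiation medium in 3 samples, and 3 control samples are labelled unstimulated with the same 48 h; the labels do not give the medium of the controls. By its title, the study concerns fibrinogen, BMP signaling in these cells and the repair of myelin.

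OPCs are glial cells that receive synapses from neurons, and they carry receptors for transmitters that neurons release. Ionotropic receptors are ion channels built from several subunits that open when a transmitter binds, whereas metabotropic receptors act through G proteins. Glutamate, GABA, ATP and adenosine, acting on such receptors, are known to influence how OPCs divide, migrate and mature.

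All values below are the deposited log2 expression levels of single arrays, on which a difference of 1 is a 2-fold change. The array medians over all probes lay between 5.78 and 5.84. Of OPC markers fixed for this purpose, 4 of 6 measured rose with fibrinogen and 2 did not pass, with a mean log2 level of 9.57 to 9.65 on control and 10.02 to 10.05 on fibrinogen arrays. Markers of microglia and of endothelial and mural cells were dim: their mean log2 levels on all arrays lay between 4.53 and 4.82 and between 4.23 and 4.61. Neuron markers stood at 6.50 to 6.64 on control and 6.46 to 6.54 on fibrinogen arrays, with 2 of 12 higher, 1 lower and 9 that did not pass. In bulk RNA, fewer cells of a type and less RNA per cell cannot be told apart. Nothing in the labels says whether the samples came from separate cultures, so p-values measure the spread between these samples.

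Of the 110 receptor genes, 6 rose, 2 fell and 102 did not pass an adjusted p of 0.05 (limma, Benjamini-Hochberg over all genes). The genes that rose were Grm5, Gabra4, Adora1, Gabbr2, Grin3a and Gria3, and those that fell were Glrb and Htr1b. The share called, 7.27% of the receptor genes, was near that of all genes tested, 7.16%. By direction, 5.45% rose, against 4.16% of all genes, and 1.82% fell, against 3.00%. Over all genes 555 were called higher and 401 lower; with each array centred on its median these were 434 and 516, and the receptor genes called were the same 8. The median log2 fold change of the receptor genes was -0.008, beside 0.003 over all genes. An unadjusted p under 0.05 was reached by 25 receptor genes (22.7%, against 21.1% of all genes). The fibrinogen and control arrays did not overlap for 28 receptor genes (25.5%, against 27.0% of all genes): 17 lay higher with fibrinogen (15% of all genes did) and 11 lower (12% of all genes did). With all genes kept, receptor genes were thus called about as often as other genes. The shares moved apart when dim genes were left out: 10 of 61 receptor genes tested (16.4%) were called against 12.9% of all genes without the dimmest 25%, and 9 of 27 (33.3%) against 20.0% without genes below the median probe. These filters used the mean over all 6 arrays, so a gene could pass or fail them through its fibrinogen values. Gabra4 and Chrna4, both called in the second fit, had control means of 5.45 and 5.69, below the median probe of 5.81. P2ry1, lower with fibrinogen, had a control mean of 6.03 but was left out at a mean of 5.67. The filtered shares thus depend in part on the change itself. No test of these shares was made, and what follows concerns single members.

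**Figure D1:**
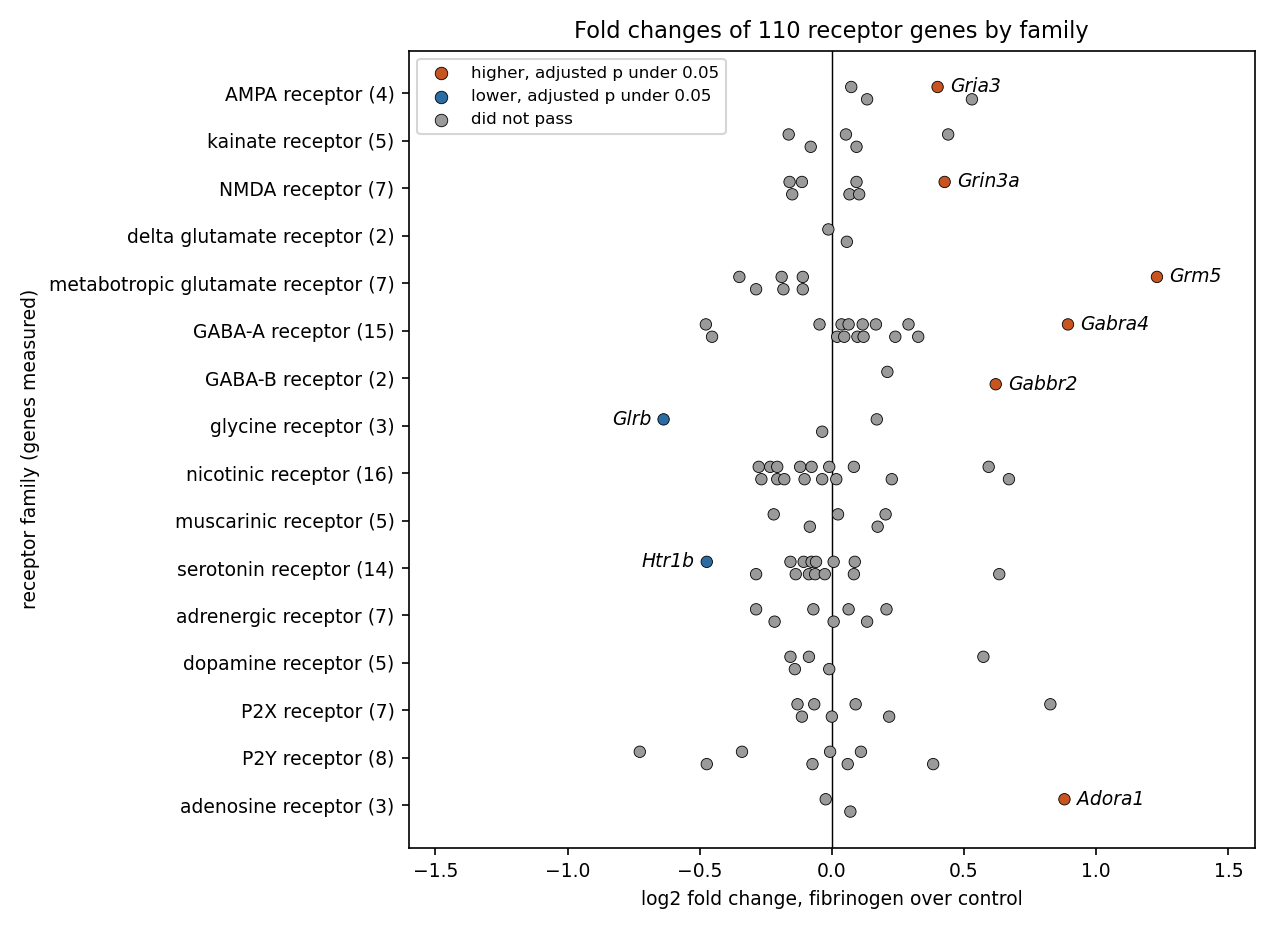
Log2 fold change, fibrinogen over control, of each of the 110 genes (points), by receptor family with the number of genes measured in parentheses; orange and blue points passed an adjusted p of 0.05 as higher and lower, and grey points did not pass. The 8 called genes lie in 8 different families, from Glrb at -0.64 to Grm5 at 1.23.

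The promoter sequences of the called genes were read from a set of RefSeq promoters (build GRCr8). That set held 82 of the 110 receptor genes and 7 of the 8 called ones. It had no entry for the others, Gria3 among them, although all 110 have RefSeq records, so the counts below leave them out. Because the study asks about BMP signaling, the 250 bases before each gene's start were searched on both strands for GGCGCC, a palindrome known to bind the SMAD proteins of the BMP pathway, and for CAGAC (reverse complement GTCTG), a SMAD-binding motif of TGF-beta targets; neither motif contains the other. GGCGCC was present in 9.24% of 27457 RefSeq promoters, in 14 of the 82 receptor gene promoters (17.1%) and in 3 of the 7 of called genes, Grin3a, Gabbr2 and Htr1b. CAGAC was present in 42.8% of all promoters, in 34 of the 82 (41.5%) and in none of the 7. The windows of the receptor genes whose calls held under every setting are shown first, and then those of the genes that rose and hold GGCGCC, which is in capitals. Each is read 5′ to 3′ on the gene's strand. The windows are chr1:150733503-150733752 on the plus strand for Grm5, chr13:48246832-48247081 on the minus strand for Adora1, chr5:69001559-69001808 on the minus strand for Grin3a and chr5:66083696-66083945 on the minus strand for Gabbr2.
Grm5: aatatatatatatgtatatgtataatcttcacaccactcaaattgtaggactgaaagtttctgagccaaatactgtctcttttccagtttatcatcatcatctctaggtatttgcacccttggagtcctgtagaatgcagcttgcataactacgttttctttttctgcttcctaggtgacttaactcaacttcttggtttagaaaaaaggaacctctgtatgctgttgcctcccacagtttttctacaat
Adora1: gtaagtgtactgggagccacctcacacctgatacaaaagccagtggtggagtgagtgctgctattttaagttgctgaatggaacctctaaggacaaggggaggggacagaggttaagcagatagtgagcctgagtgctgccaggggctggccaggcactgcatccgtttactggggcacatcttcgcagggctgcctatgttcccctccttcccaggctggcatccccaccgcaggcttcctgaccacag
Grin3a: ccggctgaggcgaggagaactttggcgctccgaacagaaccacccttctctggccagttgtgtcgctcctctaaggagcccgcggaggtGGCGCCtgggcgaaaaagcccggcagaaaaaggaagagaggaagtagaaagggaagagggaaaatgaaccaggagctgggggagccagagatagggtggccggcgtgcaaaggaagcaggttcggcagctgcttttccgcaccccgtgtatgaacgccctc
Gabbr2: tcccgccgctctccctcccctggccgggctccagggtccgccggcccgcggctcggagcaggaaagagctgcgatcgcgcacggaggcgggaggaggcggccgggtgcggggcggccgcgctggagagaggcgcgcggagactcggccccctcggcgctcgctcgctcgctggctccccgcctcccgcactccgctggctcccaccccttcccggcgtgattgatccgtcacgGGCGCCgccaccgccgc

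The GGCGCC of Grin3a begins 161 bases before the start and that of Gabbr2 17 bases before it. The windows differ in base composition, with 36.4% G and C in Grm5, 56.8% in Adora1, 60.4% in Grin3a and 78.8% in Gabbr2, and a motif of only G and C is met more often in windows rich in them. A match is a description of letters in this window and no evidence of binding.

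Most receptor genes were dim on these arrays. Only 27 of 110 (24.5%) had a mean at or above the median probe, against 56.5% of all genes, and 83 lay below it. No detection call accompanies the values, so it is unknown which of these 83 lie above background, and their fold changes may be compressed. Of the 8 called genes, 7 lay at or above the median probe and only Htr1b lay below. Gabra4 lay above it only with its fibrinogen arrays counted, as its control mean was 5.45 and the median probe 5.81. The 95% interval stayed within a 2-fold change in either direction for 99 of the 110 genes (90%, against 97.5% of all genes), and the median standard error (SE) was 0.12, against 0.10 over all genes. For most receptor genes that did not pass, a measured change of 2-fold or more in either direction lay outside the interval. Of these 102 genes, 82 lay below the median probe, where the interval does not bound the change in RNA itself.

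**Figure D2:**
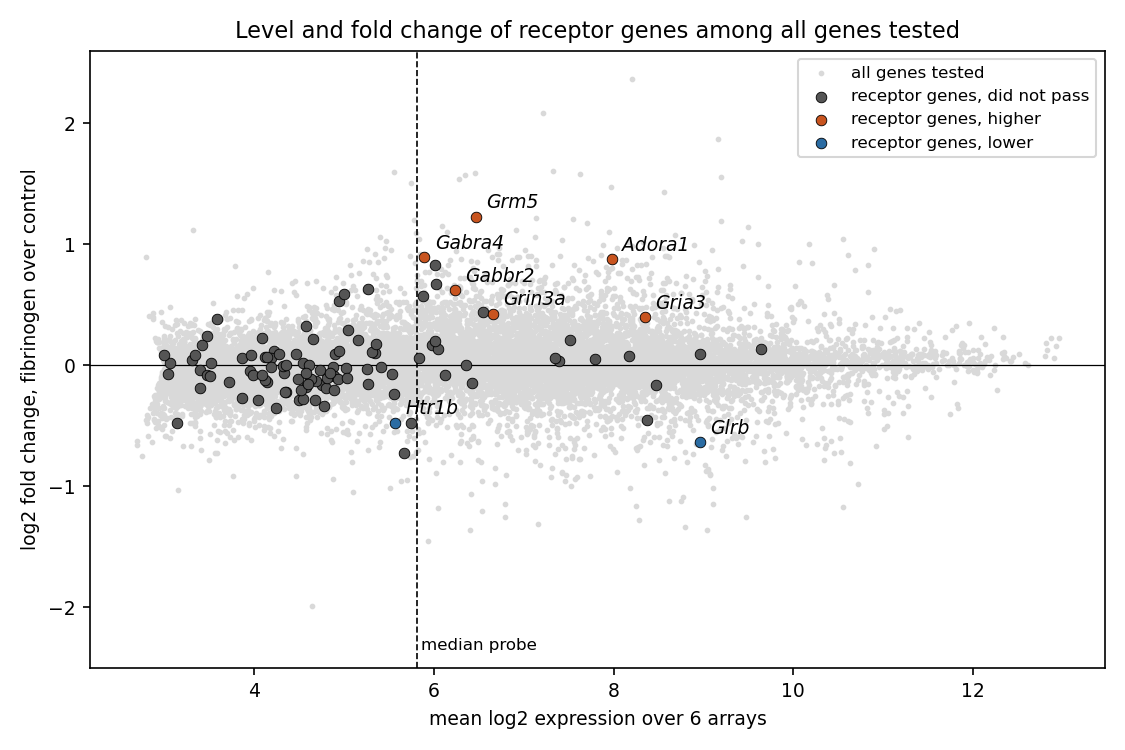
Mean log2 expression over the 6 arrays (horizontal axis) against the log2 fold change, fibrinogen over control (vertical axis), for all 13355 genes (light grey) and the 110 receptor genes (dark grey, did not pass; orange, higher; blue, lower); the dashed line marks the median probe. The receptor genes crowd at the dim end, 83 of 110 left of the line, and 7 of the 8 called genes lie right of it.

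Grm5, which encodes a metabotropic glutamate receptor that couples through Gq to phospholipase C and calcium release, had the largest change of the receptor genes. Its log2 level (probe set 10708508) was 5.76, 5.88 and 5.92 on control arrays 1 to 3 and 7.0, 7.14 and 7.11 on fibrinogen arrays 1 to 3. The groups lay 1.08 apart at their nearest arrays, far more than the spread within either group. The mean went from 5.85 ± 0.08 to 7.08 ± 0.07 (SD, n = 3), 2.35-fold higher with fibrinogen (log2 fold change 1.23 with an SE of 0.08; 95% interval 1.04 to 1.42, adjusted p = 0.00141). Grm5 passed under all 15 other settings run, with a highest adjusted p of 0.0238.

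The other 6 measured metabotropic glutamate receptor genes did not pass, and all 6 had negative log2 fold changes, between -0.35 and -0.11. All 6 were also negative with arrays centred on their medians, with quantile normalization and with array weights. Grm3, which couples through Gi and is best known from astrocytes, went from 4.82 ± 0.08 to 4.53 ± 0.14 (SD, n = 3; log2 fold change -0.29, 95% interval -0.51 to -0.06, adjusted p = 0.137). Grm7, a presynaptic receptor of neurons, was at -0.35 on the same scale (95% interval -0.64 to -0.06, adjusted p = 0.157) and Grm4 at -0.11 (95% interval -0.30 to 0.08). All 6 were dim, below the median probe, so their values say little about the receptors' presence in these cells.

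**Figure D3:**
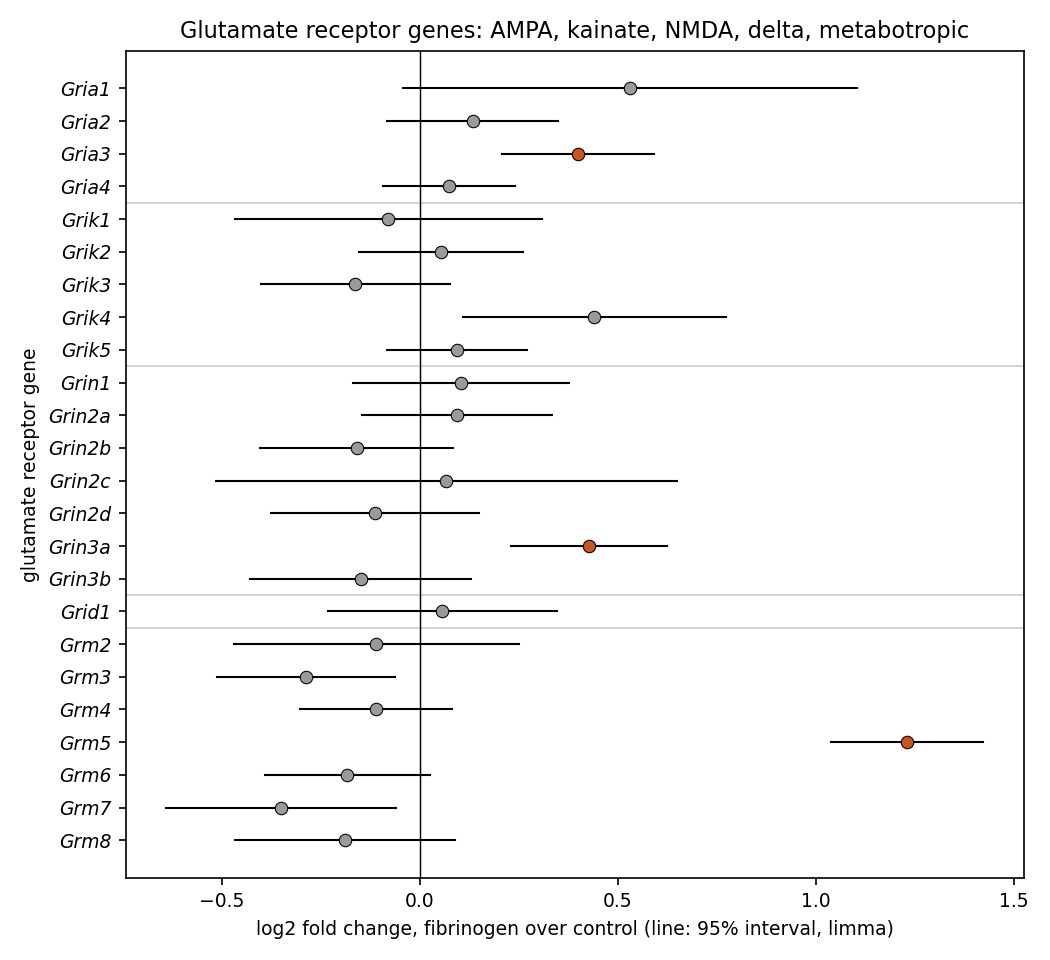
Log2 fold change, fibrinogen over control (points), with its 95% interval from limma (lines) for 24 glutamate receptor genes in rows, grouped by grey lines into AMPA, kainate, NMDA, delta and metabotropic receptors; orange points passed an adjusted p of 0.05 and grey ones did not. Grm5, at 1.23, lies apart from the other metabotropic receptor genes, which are all at or below -0.11, and Gria3 and Grin3a lie at 0.40 and 0.43.

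Among AMPA receptor genes, whose subunits form the fast glutamate-gated channels found at synapses onto OPCs, Gria3 rose and Gria1, Gria2 and Gria4 did not pass. The log2 level of Gria3 (10936215) was 8.04, 8.19 and 8.21 on control arrays and 8.56, 8.48 and 8.60 on fibrinogen arrays, without overlap. The means were 8.15 ± 0.09 and 8.55 ± 0.06 (SD, n = 3), 1.32-fold higher with fibrinogen (log2 fold change 0.40 with an SE of 0.08; adjusted p = 0.0317). Gria2, which encodes the subunit that makes these channels nearly impermeable to calcium, was at 9.58 ± 0.14 and 9.71 ± 0.03 (SD, n = 3; log2 fold change 0.13, 95% interval -0.08 to 0.35). Gria4 was at 0.07 (95% interval -0.09 to 0.24) on that scale. The dim Gria1 was at 0.53, with values from 4.36 to 5.08 on control and 4.74 to 5.44 on fibrinogen arrays that overlapped (95% interval -0.04 to 1.10, adjusted p = 0.275). The log2 ratio of Gria3 over Gria2 within an array was 0.27 higher with fibrinogen, with separate groups (p = 0.1 in a two-sided exact permutation test, the least that 3 against 3 arrays allow; 0.133 adjusted over 4 subunit ratios, whose pairs were chosen after the values were seen). The call of Gria3 was lost without any one of the 6 arrays (adjusted p = 0.0654 to 0.114) and with the unmoderated test.

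Of 5 kainate receptor genes, which encode another class of glutamate-gated channel, none was called, and 1 had an unadjusted p under 0.05. That gene, Grik4, encodes a high-affinity subunit that needs a partner to form a channel. Its log2 level was 6.0, 6.55 and 6.43 on control and 6.76, 6.74 and 6.80 on fibrinogen arrays, so the fibrinogen arrays lay close together above 3 scattered controls (log2 fold change 0.44, 95% interval 0.11 to 0.77, adjusted p = 0.125). Grik2, Grik3 and Grik5 were at or above the median probe, at log2 fold changes of 0.05, -0.16 and 0.09, with intervals that lay between -0.40 and 0.27. Grik1 was dim, at -0.08 (95% interval -0.47 to 0.31).

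Of 7 NMDA receptor genes, 1 rose and 6 did not pass. NMDA receptors need the subunit of Grin1 in every channel; the subunit of Grin3a lowers their calcium permeability and their block by magnesium. Grin3a (10876734) was at 6.43, 6.45 and 6.45 on control and 7.0, 6.77 and 6.84 on fibrinogen arrays. The 3 control values were nearly the same, at 6.44 ± 0.01 (SD, n = 3), and the fibrinogen mean was 6.87 ± 0.12 (SD, n = 3), 1.34-fold higher with fibrinogen (log2 fold change 0.43 with an SE of 0.08; adjusted p = 0.0279). Grin1 lay below the median probe and was at 0.10 on the log2 scale (95% interval -0.17 to 0.38). The ratio of Grin3a over Grin1 overlapped between the groups (exact permutation p = 0.2). It is unknown whether Grin1 lies above background, which limits that ratio. Grin2a, Grin2b, Grin2c and Grin2d, whose subunits bind glutamate, were dim and at 0.09, -0.16, 0.07 and -0.11. The interval was widest for Grin2c (-0.52 to 0.65), and the other 3 reached no further than -0.40 and 0.33. The call of Grin3a was lost without any one of the 6 arrays (adjusted p = 0.0569 to 0.0896). Grid1, a delta receptor gene that acts in synaptic adhesion, was at 0.06 (95% interval -0.23 to 0.35), and its sign turned to -0.09 with the mean of its 2 probes and to -0.06 without control 1.

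GABA-A receptors are chloride channels opened by GABA, which depolarises OPCs. Of 15 measured genes, 1 rose and 14 did not pass. Gabra4 (10772522), which encodes an alpha subunit common in extrasynaptic receptors, was at 5.33, 5.50 and 5.51 on control and 6.11, 6.12 and 6.79 on fibrinogen arrays. All 3 fibrinogen arrays lay at least 0.60 above the highest control, and fibrinogen 3 stood at least 0.67 above the other two. The means were 5.45 ± 0.10 and 6.34 ± 0.39 (SD, n = 3), 1.86-fold higher with fibrinogen (log2 fold change 0.89 with an SE of 0.19; adjusted p = 0.0334). Omitting any single array except fibrinogen 3 ended the call (adjusted p up to 0.0957, on omitting control 1). Without fibrinogen 3 the log2 fold change was 0.67 and the adjusted p was 0.0276.

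Gabrg1, which encodes a gamma subunit of glial GABA-A receptors, leaned the other way without passing. It was at 8.68, 8.66 and 8.46 on control and 7.93, 8.35 and 8.16 on fibrinogen arrays, without overlap (log2 fold change -0.45, SE 0.12, 95% interval -0.74 to -0.16, adjusted p = 0.0790). Its adjusted p was 0.0477 without the dimmest 25% of genes and 0.0281 without genes below the median probe. In limma with an intensity trend and a robust prior it was 0.00875, and with the replicate number as a block 0.135. It was 0.202 with the unmoderated test and 0.0740 to 0.197 with 1 array left out. Gabra2, another alpha subunit gene above the median probe, was at 0.04 (95% interval -0.26 to 0.33), a sign that turned with centred arrays and quantile normalization, and Gabra3 at 0.17 (95% interval -0.36 to 0.69). Gabrr1, a subunit gene best known from the retina, was dim and at 0.33 (95% interval 0.06 to 0.59, adjusted p = 0.154). Gabra5, Gabrb1, Gabrb2 and Gabrg3, all below the median probe, were at 0.12, 0.29, 0.05 and 0.10.

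GABA-B receptors are G protein-coupled and work as a pair, in which the product of Gabbr1 binds GABA and that of Gabbr2 couples to Gi. Gabbr2 (10876630) rose 1.54-fold: it was at 5.78, 6.16 and 5.83 on control and 6.68, 6.34 and 6.61 on fibrinogen arrays. The groups were separated by only 0.18, between control 2 and fibrinogen 2. The means were 5.92 ± 0.21 and 6.54 ± 0.18 (SD, n = 3), and the log2 fold change of 0.62 had an SE of 0.13 and an adjusted p of 0.0395. Gabbr1 was at 7.41 ± 0.16 and 7.62 ± 0.04 (SD, n = 3), also without overlap; its log2 fold change of 0.21 missed the threshold (95% interval -0.02 to 0.44, adjusted p = 0.279). The log2 ratio of Gabbr2 over Gabbr1 was 0.41 higher with fibrinogen, without overlap (exact permutation p = 0.1, the smallest possible; 0.133 adjusted over the 4 ratios). Omitting any single array except control 2 ended the call of Gabbr2 (adjusted p up to 0.138, on omitting fibrinogen 1).

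Glycine receptors are chloride channels in which the beta subunit, encoded by Glrb, ties the channel to the scaffold protein gephyrin. Glrb (10823875) fell 1.55-fold: it was at 9.32, 9.30 and 9.22 on control and 8.46, 8.59 and 8.88 on fibrinogen arrays. The control arrays lay within 0.10 of each other, and the fibrinogen arrays spread more but stayed at least 0.34 below them. The means were 9.28 ± 0.05 and 8.64 ± 0.21 (SD, n = 3), and the log2 fold change of -0.64 had an SE of 0.12 and an adjusted p of 0.0222. Glra1 and Glra2, the genes of the glycine-binding alpha subunits, were dim, with means of 3.33 to 3.50, and at -0.04 and 0.17 on the log2 scale (95% intervals -0.36 to 0.29 and -0.06 to 0.40). The ratio of Glrb over Glra2, the fourth of the subunit ratios computed, is not given, since it is unknown whether Glra2 lies above background. Omitting any single array except fibrinogen 3 ended the call of Glrb (adjusted p up to 0.0846, on omitting fibrinogen 2).

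Adenosine arises outside cells when ATP is broken down, and its receptors are G protein-coupled. Adora1 (10767771), whose product couples to Gi, rose 1.84-fold. It was at 7.38, 7.60 and 7.64 on control and 8.51, 8.37 and 8.38 on fibrinogen arrays, with a gap of 0.73 between the groups. The means were 7.54 ± 0.14 and 8.42 ± 0.08 (SD, n = 3; log2 fold change 0.88 with an SE of 0.10; 95% interval 0.66 to 1.10, adjusted p = 0.00392). Like Grm5, Adora1 passed under all 15 other settings run (highest adjusted p = 0.0340). Adora2a and Adora2b, whose products couple to Gs, did not pass, at 0.07 and -0.02 (95% intervals -0.41 to 0.55 and -0.31 to 0.26). Both signs turned when certain single arrays were left out, and that of Adora2b also with array weights. Adora3 was not analysed here.

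**Figure D4:**
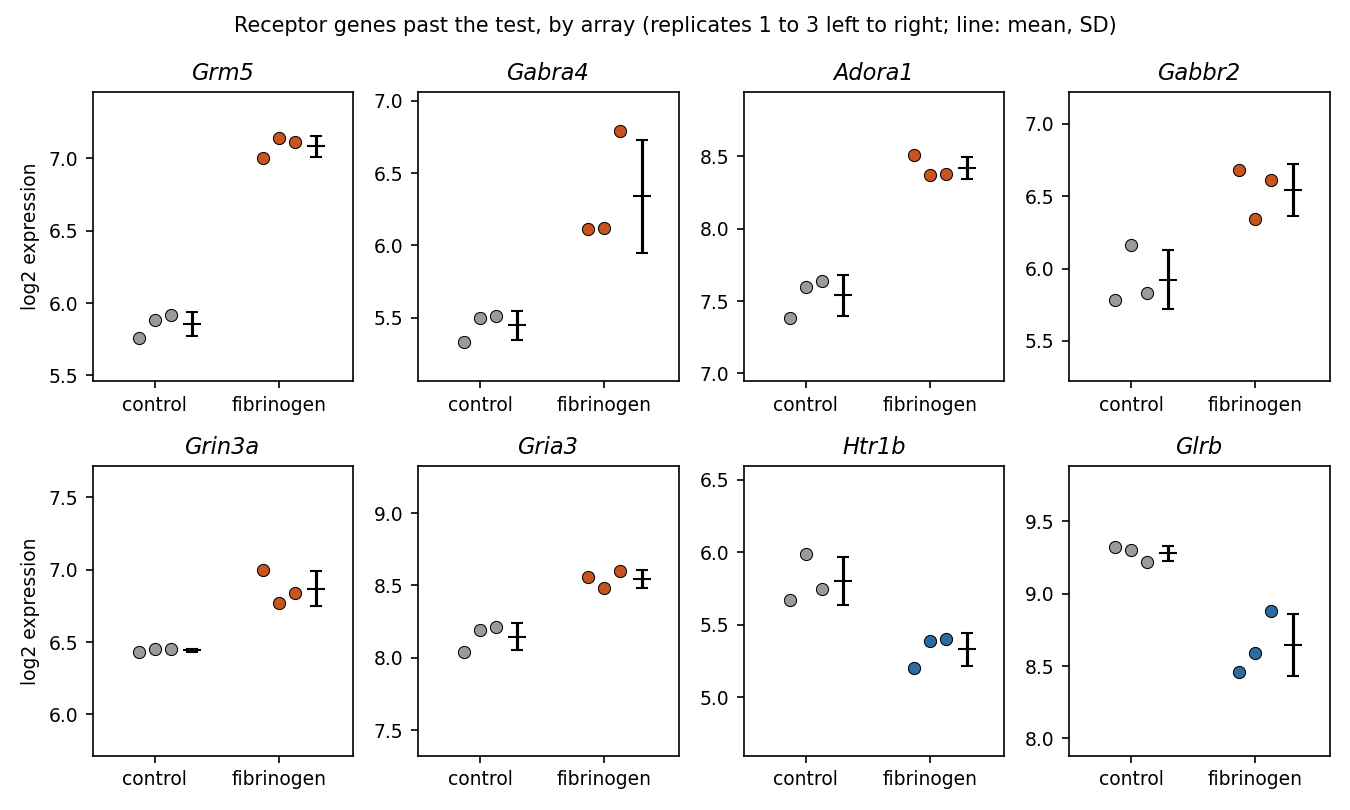
Log2 expression (vertical axes, each spanning 2 log2 units) of the 8 called receptor genes on the 3 control (grey) and 3 fibrinogen arrays (orange, higher; blue, lower); points are replicates 1 to 3 from left to right, and black lines give the mean and SD. In all 8 genes the groups do not overlap; the gap is widest for Grm5 (1.08) and narrowest for Gabbr2 (0.18).

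Nucleotide receptors gave no call. Of 7 P2X genes, which encode ATP-gated cation channels, 1 had an unadjusted p under 0.05, and of 8 P2Y genes, which encode G protein-coupled receptors, 3 had. P2ry14, a receptor gene for UDP-sugars, lay just outside the threshold: it was at 3.34, 3.56 and 3.29 on control and 3.80, 3.78 and 3.76 on fibrinogen arrays (log2 fold change 0.38, SE 0.09, adjusted p = 0.0507). Those levels are among the dim values of the arrays. P2ry1, an ADP receptor gene, was at 6.09, 6.11 and 5.90 on control and 4.96, 5.71 and 5.25 on fibrinogen arrays, without overlap (log2 fold change -0.73, SE 0.18, adjusted p = 0.0612). Without fibrinogen 2, the highest of its 3 arrays, its log2 fold change was -0.93 and its adjusted p 0.0230; with any of the other 5 arrays omitted these were -0.79 to -0.55 and 0.107 to 0.173. P2ry4 was at -0.34 (95% interval -0.59 to -0.09, adjusted p = 0.115).

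P2rx7, whose channel opens at high ATP, was at 5.55, 6.24 and 5.02 on control and 6.69, 6.36 and 6.24 on fibrinogen arrays. The controls were spread over more than 1 log2 unit and control 2 equalled fibrinogen 3 (log2 fold change 0.83, SE 0.29, 95% interval 0.15 to 1.51, adjusted p = 0.154). Without control 2 its log2 fold change was 1.145 and its adjusted p 0.0330, whereas omitting any of the other 5 arrays gave 0.535 to 0.92 and adjusted p-values of 0.240 to 0.364. P2rx4 had a mean of 6.36 in each group (95% interval of the log2 fold change -0.26 to 0.26). P2ry12, a receptor of microglia, varied widely among fibrinogen arrays (5.22, 5.15 and 6.16) and was at -0.47 (95% interval -1.12 to 0.17, adjusted p = 0.391). Beside it, 1 of 12 microglia markers fell (Itgam, at -0.60) and 11 did not pass, with mean log2 levels of 4.62 to 4.82 on control and 4.53 to 4.59 on fibrinogen arrays; their part in the P2ry12 value was not tested. P2ry2 was at 0.11 (95% interval -0.20 to 0.42).

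Of 16 nicotinic acetylcholine receptor genes, which encode cation channels, none was called, and 3 had an unadjusted p under 0.05. Chrna4, an alpha subunit gene, was at 5.33, 5.73 and 6.0 on control and 6.59, 6.37 and 6.11 on fibrinogen arrays, a separation of 0.11 (log2 fold change 0.67, SE 0.19, adjusted p = 0.0882). Chrnb1, a subunit gene of the muscle receptor, was dim and at 0.59 (SE 0.17, adjusted p = 0.0992), and Chrna7 at -0.23 (95% interval -0.47 to -0.0014, adjusted p = 0.235). Chrnb2, the usual partner of Chrna4, was at -0.08 (95% interval -0.36 to 0.21). Of 5 muscarinic genes, which encode G protein-coupled acetylcholine receptors, none was called, and Chrm3 had an unadjusted p under 0.05. Chrm3 was at 5.90, 5.8 and 6.02 on control and 6.09, 6.18 and 6.06 on fibrinogen arrays (log2 fold change 0.20, adjusted p = 0.233). Chrm1, studied as a brake on OPC maturation, was at 0.17 with overlapping groups (95% interval -0.26 to 0.60).

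All 14 measured serotonin receptor genes lay below the median probe. Of these, 1 fell and 13 did not pass. Htr1b (10918979), whose product couples to Gi, was at 5.67, 5.99 and 5.75 on control and 5.20, 5.39 and 5.4 on fibrinogen arrays. The groups were 0.27 apart, with means of 5.8 ± 0.17 and 5.33 ± 0.11 (SD, n = 3), 1.39-fold lower with fibrinogen (log2 fold change -0.47 with an SE of 0.11; adjusted p = 0.0464). This call was closest to the threshold and was lost without any one of the 6 arrays (adjusted p = 0.0573 to 0.150). Htr2b, a Gq-coupled receptor gene, was at 5.34, 4.75 and 4.77 on control and 5.4, 5.88 and 5.48 on fibrinogen arrays (log2 fold change 0.63, SE 0.19, adjusted p = 0.109). Control 1 almost reached the fibrinogen arrays, and leaving it out gave a log2 fold change of 0.83 and an adjusted p of 0.0413. With any of the other 5 arrays left out, the log2 fold change was 0.49 to 0.73 and the adjusted p 0.166 to 0.259. Htr3b, a subunit gene of the serotonin-gated channel, was at -0.29 (SE 0.09, adjusted p = 0.116), and Htr2a and Htr2c were at -0.08 and -0.09 with intervals across 0.

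Of 5 dopamine receptor genes, none was called. Drd2, whose product couples to Gi, had an unadjusted p under 0.05: it was at 5.41, 5.36 and 6.01 on control and 6.32, 6.03 and 6.15 on fibrinogen arrays, separated by 0.02 (log2 fold change 0.57, SE 0.18, adjusted p = 0.119). Control 3 lay with the fibrinogen arrays, and leaving it out gave a log2 fold change of 0.78 and an adjusted p of 0.0225. Leaving out any of the other 5 arrays gave 0.46 to 0.64, with adjusted p-values of 0.183 to 0.301. Drd1 was at -0.01 (95% interval -0.35 to 0.33). Of 7 adrenergic receptor genes, none was called and 1 had an unadjusted p under 0.05, Adra1d at 0.21 (95% interval 0.03 to 0.39, adjusted p = 0.179). Adra1a was at -0.22 (95% interval -0.47 to 0.03) and Adrb1 at -0.07 (95% interval -0.34 to 0.20).

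**Figure D5:**
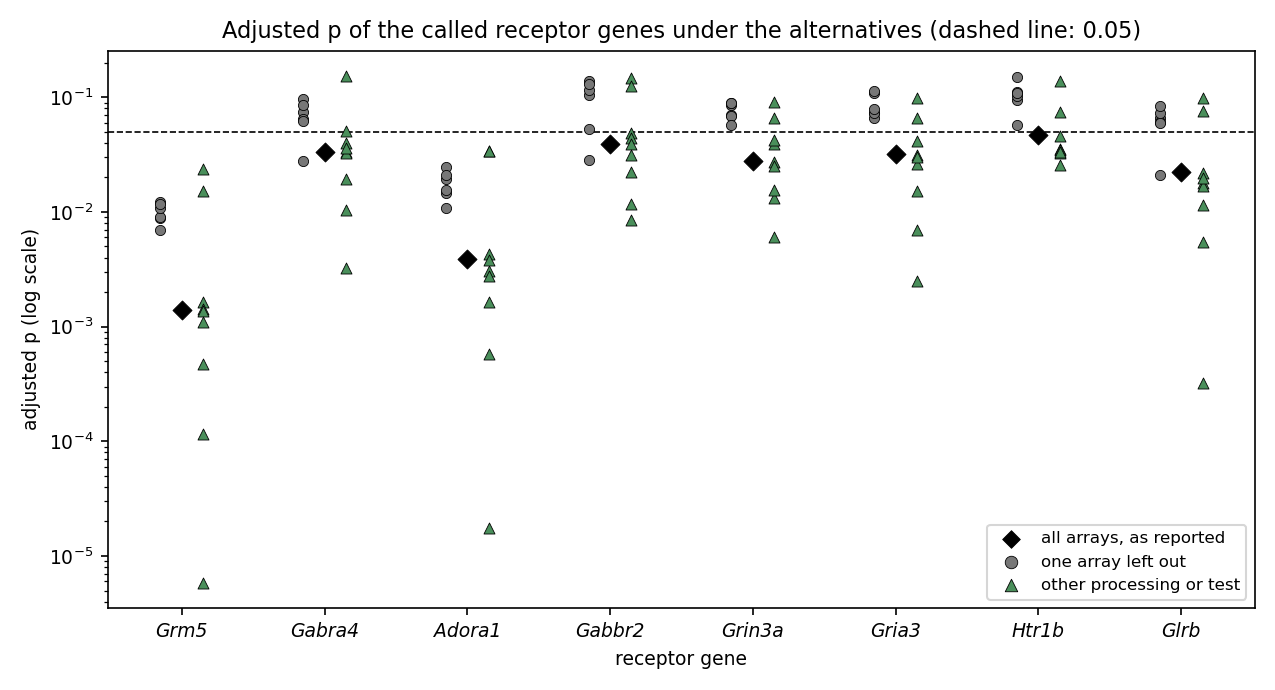
Adjusted p from limma (log axis) of the 8 called receptor genes in order of log2 fold change: as reported (black diamonds), with one array left out (grey circles) and under the other processing settings and tests (green triangles); the dashed line marks 0.05. All points of Grm5 and Adora1 lie below the line, up to 0.0238 and 0.0340, while each of the other genes has points above it.

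Genes whose products anchor, couple or limit these receptors were counted from lists of textbook partners. Of 88 partner genes measured in 4 lists, 8 rose, 4 fell and 76 did not pass. Of all genes tested, 7.16% were called, and 20.0% when genes below the median probe were left out. The shares called in the lists were not tested. Among 26 auxiliary subunits and scaffolds of glutamate receptors, 4 rose, 1 fell and 21 did not pass. This was 19.2% called, against 7.16% of all genes, with a median log2 fold change of 0.045. Of these 26 genes, 65.4% lay at or above the median probe, against 56.5% of all genes. Cacng4, a TARP that carries AMPA receptors to the membrane and slows their closing, was at 10.53 ± 0.05 on control and 11.14 ± 0.03 on fibrinogen arrays (SD, n = 3), 1.52-fold higher (adjusted p = 0.00477), and passed whichever array was left out. Cnih2, another AMPA receptor auxiliary protein, rose 1.65-fold (adjusted p = 0.0392). Homer2, a scaffold that binds Grm5-type receptors, rose 1.39-fold (adjusted p = 0.0151) and Dlgap1, a postsynaptic scaffold, 1.42-fold (adjusted p = 0.0198), whereas Dlg1, a scaffold of the PSD-95 family, fell 1.32-fold (adjusted p = 0.0237). With arrays centred on their medians Cnih2 did not pass (adjusted p = 0.0504). Leaving out single arrays ended the calls of Cnih2 (any but fibrinogen 2), Dlg1 (any but control 1), Dlgap1 (control 1, control 3, fibrinogen 2 or fibrinogen 3) and Homer2 (any fibrinogen array), with highest adjusted p-values of 0.136, 0.0919, 0.0789 and 0.0664.

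Among 29 genes of G protein coupling and desensitisation, 3 rose, 2 fell and 24 did not pass. This was 17.2% called, against 7.16% of all genes, with a median log2 fold change of 0.017. Of these 29 genes, 79.3% lay at or above the median probe, against 56.5% of all genes. Gnaq, a Gq alpha subunit through which Grm5-type receptors act, was at 9.44 ± 0.02 on control and 9.03 ± 0.06 on fibrinogen arrays (SD, n = 3). It was 1.33-fold lower (adjusted p = 0.0174), and Prkca, a protein kinase C gene downstream of it, fell 1.30-fold (adjusted p = 0.0485). Gna11, Plcb1, Plcb3, Plcb4, Itpr1, Itpr2 and Itpr3 of the same list did not pass. The log2 fold change of Gna11 was 0.02 (adjusted p = 0.939). Rgs2, which switches Gq off, rose 1.64-fold (adjusted p = 0.0270), Rgs7, a regulator of Gi and Go signaling, 1.56-fold (adjusted p = 0.0403) and Camk2b, a calcium-dependent kinase, 1.33-fold (adjusted p = 0.0281). Leaving out single arrays ended the calls of Prkca and Camk2b (any array), Gnaq (any but control 1), Rgs7 (any but control 2) and Rgs2 (control 1, control 3, fibrinogen 1 or fibrinogen 3), with highest adjusted p-values of 0.147, 0.104, 0.0745, 0.122 and 0.104.

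Of 19 enzymes that make or break down transmitters and extracellular nucleotides, 1 rose, 1 fell and 17 did not pass. This was 10.5% called, against 7.16% of all genes, with a median log2 fold change of -0.07. At or above the median probe lay 42.1% of the 19, against 56.5% of all genes. Entpd1, which breaks down ATP and ADP outside cells on the way to adenosine, was at 5.55 ± 0.14 on control and 6.33 ± 0.15 on fibrinogen arrays (SD, n = 3), 1.71-fold higher (adjusted p = 0.00907). It passed whichever array was left out. It did not pass in the unmoderated test (adjusted p = 0.0604) or, in limma, with the replicate number as a block (adjusted p = 0.0527). Enpp2 (autotaxin, abundant in oligodendrocytes) fell 1.38-fold (adjusted p = 0.0158), a call lost without any one array but control 1 (highest adjusted p = 0.0720). Of 14 anchors and chaperones of GABA, glycine and nicotinic receptors, none was called in limma, and 2 had an unadjusted p under 0.05. Gphn (gephyrin), chosen after its value was seen as the partner of Glrb, was at -0.12 on the log2 scale (adjusted p = 0.594).

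Beside the receptor genes that rose, 3 of 6 measured astrocyte markers rose (Gfap, Slc1a2 and Slc1a3) and 3 did not pass. The 3 that did not pass, Aqp4, Gja1 and Aldoc, had log2 fold changes of -0.24, -0.10 and 0.04. The mean log2 level of the 6 astrocyte markers was 8.34 to 8.42 on control and 8.70 to 8.77 on fibrinogen arrays, with all 6 above the median probe. OPC markers rose as well, 4 of 6, with a median log2 fold change of 0.523, against 0.325 for the astrocyte markers. Beside Glrb, 3 of 6 oligodendrocyte markers fell (Mag, Cnp and Mbp) and 3 did not pass, with mean log2 levels of 8.55 to 8.67 on control and 8.26 to 8.30 on fibrinogen arrays. The neuron markers that were called went both ways: Elavl4 and Stmn2 rose by 0.90 and 0.38 on the log2 scale, and Syt1 fell by 1.16. The part of these cell types in the receptor values was not tested.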

How the data were processed

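Expression was measured on 6 Affymetrix rat arrays, 3 control and 3 fibrinogen, grouped by their titles. The deposited values are log2 expression made by the authors; the submitters' processing notes list RMA and limma, while versions, settings and the genome build are not given in the sources used here. Values were present for 23631 of 26312 probe rows. RMA shrinks changes of dim probes. The number of arrays limits the precision.

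Probes were named from the platform annotation. Probes with several symbols were left out, and each gene took its probe with the highest mean. Of 115 listed probes of receptor genes, 2 had no values and 2 had several symbols; all 110 symbols matched current RefSeq records by gene number. All 13355 genes were fitted together with lmFit and eBayes (limma 3.58.1 under R 4.3.3), fibrinogen minus control without covariates and two-sided, with Benjamini-Hochberg adjusted p-values and a threshold of 0.05. The script was tested on simulated data. RefSeq sequences are of build GRCr8 and were matched by gene. Subunit ratios were compared with two-sided exact permutation tests.

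Named were all called members, those with an unadjusted p under 0.05 (the 12 smallest p-values in full), the smallest p of each family and 55 receptor genes whatever their values, of which 49 were measured; of the partner lists, up to 5 called genes each. Other named genes were chosen after their values were seen. The members, lists and tests were chosen with earlier results of these data known.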

Additional observations from a re-analysis of the deposited data

How the results depend on the processing

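Alternatives changed scaling between arrays, filters on dim genes, probe choice, test, weights, the replicate block or the arrays included, 1 at a time, except that the intensity trend and the robust prior were changed together. The direction of all 8 called receptor genes held wherever they were tested, and the calls of Grm5 and Adora1 held under all 15 settings. The counts of receptor genes called higher (6) and lower (2) stayed within 1.5 times with centred arrays, quantile normalization, the mean of probes, array weights and without genes below the median probe, although the fit without the dimmest genes tested only 61 receptor genes and that without genes below the median probe only 27. They became 2 and 0 with the unmoderated test (10 and 7 at an unadjusted p under 0.05), 11 and 4 with the trend and robust prior, and 4 lower without the dimmest 25% of genes. Of the named receptor genes that did not pass, 8 were called in at least 1 alternative. Leaving out 1 array gave 2 to 5 higher and 0 to 1 lower (8 to 10 lower at an unadjusted p under 0.05 in limma), with fewer arrays in the fit. Over all genes, 956 calls became 500 with the unmoderated test, 1617 with a robust trend prior, 1508 without genes below the median probe and 358 to 592 with 1 array left out. The partner genes called higher (8) became 2 with the unmoderated test and 2 to 6 with 1 array left out, and those called lower (4) became 0 to 3 with 1 array left out. The median log2 fold change of the receptor genes (-0.008) was -0.055 with centred arrays, 0.053 without the dimmest 25% of genes and 0.133 without genes below the median probe. With centred arrays the median over all genes moved from 0.003 to -0.043.

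Replicate numbers are shared by the groups, but nothing shows that they pair the samples: same-numbered arrays correlated at 0.0202, -0.135 and -0.074 in their deviations from the group means. With the replicate block, 2 receptor genes were called higher and 0 lower (15 and 10 at an unadjusted p under 0.05) and 1 partner gene higher and 0 lower (7 lower at an unadjusted p under 0.05) in limma; that gene was Cacng4, and Entpd1 had an adjusted p of 0.0527, with 343 genes called in all; fewer residual degrees of freedom remain in that fit.

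Signs turned for 16 named genes, none of them called in any setting. With array weights the log2 fold change was 0.047 for Adora2b, 0.000 for Adrb1, 0.018 for Grik1 and 0.005 for Htr2a. With quantile normalization the log2 fold change was 0.027 for Drd1 and -0.001 for Gabra2. With centred arrays the log2 fold change was -0.010 for Gabra2. With the mean of probes the log2 fold change was -0.090 for Grid1. With 1 array left out it ranged from -0.113 to 0.198 for Adora2a, -0.148 to 0.067 for Adora2b, -0.162 to 0.028 for Adrb1, -0.160 to 0.040 for Chrnb2, -0.150 to 0.10 for Drd1, -0.075 to 0.165 for Gabra2, -0.087 to 0.293 for Gabra3, -0.077 to 0.158 for Gabrb2, -0.002 to 0.213 for Gabrg3, -0.062 to 0.163 for Grid1, -0.193 to 0.072 for Grik1, -0.003 to 0.172 for Grin1, -0.010 to 0.150 for Grin2a, -0.188 to 0.022 for Htr2a, -0.185 to 0.005 for Htr2c and -0.010 to 0.215 for P2ry2. The causes were not tested.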
